A study of Mus musculus with 4 samples.

Results

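Transcripts of 9 genes of the tight junction were followed in 4T1-S and 4T1-A, a pair of sub-lines of the 4T1 line, which derives from a mammary carcinoma of the BALB/c mouse. The genes are Cldn1, Cldn3, Cldn4, Cldn7, Cldn12, Ocln, Tjp1, Tjp3 and F11r, and they were taken as every spot other than controls whose gene name in the array files is on that list. That found all 9 genes, of 27962 gene names in the files, through 12 spots of 12 different probes out of 41174 probes on the array, and every one is described. Each sub-line was represented by 2 one-colour Agilent arrays, numbered 1 and 2, of total RNA labelled with Cy3. The labels give 4T1 as the parental line of both sub-lines and name no treatment, genotype or passage, and the title of the series calls 4T1-S highly immunogenic. Nothing in them tells whether arrays 1 and 2 were hybridised with RNA of different cultures, so the spread behind the p-values is that between arrays and may be technical. All 4 arrays lay on 1 slide, with each sub-line at its own positions, so position and sub-line cannot be told apart.

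Tight junctions seal the space between neighbouring epithelial cells near their apical border. Claudins are membrane proteins whose extracellular loops meet those of claudins on the next cell, and the mixture of claudins sets which ions and solutes pass. Occludin and the junctional adhesion molecules are further membrane proteins of the junction, and the zonula occludens proteins bind them from the cytoplasm and tie them to actin. Mammary epithelium makes several claudins, and claudin-3, claudin-4 and claudin-7 are the ones commonly used to separate claudin-low tumours from other breast carcinomas.

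Levels are given as scaled intensity, the processed intensity of a spot divided by the 75th percentile of its array. The percentage of spots well above background was 59.2 and 58.2 on the 4T1-S arrays and 54.9 and 56.3 on the 4T1-A arrays. The lowest scaled intensity of a probe well above background was 0.0596 and 0.0550 on the 4T1-S arrays and 0.0511 and 0.0488 on the 4T1-A arrays. Each difference is the log2 level in 4T1-S less that in 4T1-A, with limma's standard error (SE). The fit covered the 23691 probes that were well above background on both arrays of either sub-line, and a gene was called at a Benjamini-Hochberg adjusted p under 0.05. A gene with several probes was called by its brightest probe over all arrays. Probes hybridise with different strength, so the level of a probe is set only against the same probe in the other sub-line.

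Claudin-4 and claudin-7 were several-fold lower in 4T1-S, and the other members measured on these arrays did not pass the test in either direction. Of the 9 genes, 8 had a probe that was tested, 2 of those 8 were called lower, 0 were called higher and 6 did not pass. Over all 16173 genes tested by their brightest probe, limma called 2.55% lower, 2.4% higher and 4.95% in either direction. Over all probes tested the shares were 2.35% lower and 2.17% higher, 4.52% together. At an unadjusted p under 0.05 limma gave 3 of the 8 genes as lower, the third being Tjp3, and 1 as higher, Cldn12, where over all genes tested 7.83% were lower and 19.4% higher at that threshold, 27.2% together. The median difference of the 8 tested genes was -0.26, against 0.13 over all genes tested. The members were chosen with earlier results of these data known, so these counts and the median are descriptions of the list.

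**Figure D1:**
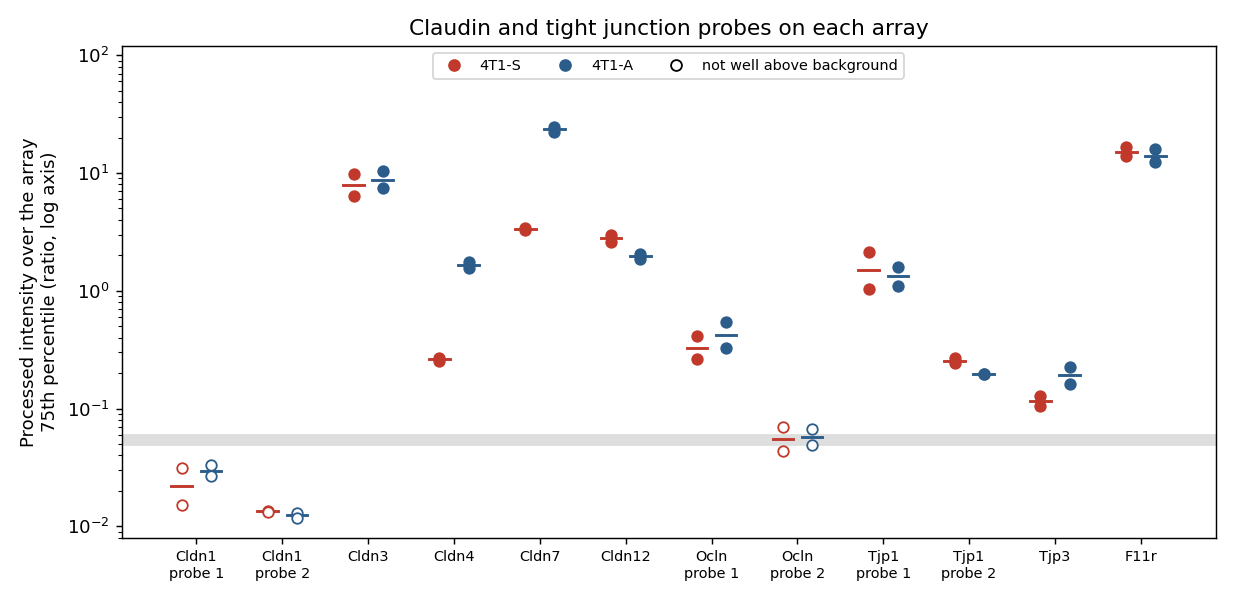
Scaled intensity (log axis) of the 12 member probes on each array, with 4T1-S left of 4T1-A and a bar at the mean of the log2 values of the 2 arrays. Open circles were not well above background on the arrays of that sub-line, and the grey band spans the lowest scaled intensities well above background on the 4 arrays, 0.0488 to 0.0596. Cldn4 and Cldn7 stand apart between the sub-lines, at 0.256 to 0.270 against 1.55 to 1.76 and at 3.25 to 3.44 against 22.4 to 24.8.

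Cldn7 encodes claudin-7, which in epithelia lies along the lateral membrane as well as in the tight junction and binds the adhesion molecule EpCAM. Its probe gave scaled intensities of 3.44 and 3.25 on the 4T1-S arrays, against 24.8 and 22.4 on the 4T1-A arrays. Both 4T1-S arrays were low, both 4T1-A arrays were high, and the groups were far apart relative to the gap between replicate arrays, which was 0.08 in 4T1-S and 0.15 in 4T1-A on the log2 scale. The difference was -2.82 ± 0.19 (SE, n = 2 arrays per sub-line), a 7.05-fold lower level in 4T1-S, with limma's adjusted p = 2.76e-04. Its 95% interval ran from -3.26 to -2.37. Of the 16173 genes tested, 85 had a lower difference than Cldn7.

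Cldn4 encodes claudin-4, a barrier-forming claudin that, with claudin-3, is a receptor for Clostridium perfringens enterotoxin. It gave scaled intensities of 0.270 and 0.256 on the 4T1-S arrays, against 1.76 and 1.55 on the 4T1-A arrays. The groups did not overlap, and the gap between replicate arrays was 0.08 in 4T1-S and 0.19 in 4T1-A on the log2 scale. The difference was -2.65 ± 0.19 (SE, n = 2 arrays per sub-line), a 6.29-fold lower level in 4T1-S, with limma's adjusted p = 3.59e-04 and a 95% interval from -3.10 to -2.20. With normexp background correction, which adds an offset to every spot, the difference of Cldn4 was -2.07 (adjusted p = 0.00388). The calls of Cldn4 and Cldn7 held under all 16 alternative settings, and the difference of Cldn7 stayed between -3.11 and -2.73 in them. The 4 settings that left out 1 array gave -2.75 to -2.56 for Cldn4 and -2.89 to -2.74 for Cldn7. In RNA of whole cultures, fewer cells with a transcript and less of it per cell cannot be told apart.

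The promoters of the 2 genes that fell are shown because those genes moved together. That of Cldn3 is shown because Cldn3 lies next to Cldn4 in the genome and did not pass. Each is the RefSeq window of assembly GRCm38.p6 from 250 bases before to 50 bases after an annotated start, and Cldn7 has 2 such starts. Capitals mark CACCTG on either strand, which reads CAGGTG on the other. It is the E-box form that the repressors Zeb1, Snai1 and Snai2 are known to bind, and it is one of the sequences covered by the general E-box CANNTG.
Cldn4, chr5:134946885-134947184, minus strand: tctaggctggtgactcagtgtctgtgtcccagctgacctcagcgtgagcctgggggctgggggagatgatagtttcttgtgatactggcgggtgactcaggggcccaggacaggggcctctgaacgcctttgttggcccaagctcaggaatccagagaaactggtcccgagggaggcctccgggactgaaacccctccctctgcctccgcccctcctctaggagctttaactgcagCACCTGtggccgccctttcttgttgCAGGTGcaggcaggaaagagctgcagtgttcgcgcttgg
Cldn7, upstream start, chr11:69964529-69964828, plus strand: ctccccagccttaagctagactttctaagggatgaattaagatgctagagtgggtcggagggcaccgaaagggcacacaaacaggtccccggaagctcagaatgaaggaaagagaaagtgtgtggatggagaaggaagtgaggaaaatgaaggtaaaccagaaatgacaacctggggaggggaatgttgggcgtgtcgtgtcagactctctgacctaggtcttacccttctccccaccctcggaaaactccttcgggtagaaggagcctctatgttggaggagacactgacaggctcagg
Cldn7, downstream start, chr11:69965171-69965470, plus strand: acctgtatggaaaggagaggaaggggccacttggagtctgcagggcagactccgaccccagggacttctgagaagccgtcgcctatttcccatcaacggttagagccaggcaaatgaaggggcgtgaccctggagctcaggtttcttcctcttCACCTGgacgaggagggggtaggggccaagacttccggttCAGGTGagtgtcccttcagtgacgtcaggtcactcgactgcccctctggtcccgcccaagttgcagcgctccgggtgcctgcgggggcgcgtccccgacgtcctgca
Cldn3, chr5:134985964-134986263, plus strand: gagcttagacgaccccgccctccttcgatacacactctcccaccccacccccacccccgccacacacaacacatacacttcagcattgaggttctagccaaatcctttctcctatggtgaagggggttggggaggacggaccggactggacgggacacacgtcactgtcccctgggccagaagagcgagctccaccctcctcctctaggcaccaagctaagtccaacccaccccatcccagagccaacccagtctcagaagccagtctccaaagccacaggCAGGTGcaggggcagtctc

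CACCTG occurred 2 times in the Cldn4 window, 2 times at the downstream start of Cldn7, 0 times at its upstream start and 1 time in the Cldn3 window. RefSeq windows were found for all 9 members. It also occurred in windows of Ocln, Tjp3 and F11r, which were not called, and in none of those of Cldn1, Cldn12 and Tjp1. Of all 32851 promoter windows of that length, 20.2% held CACCTG and 72.3% held CANNTG. The sequence AACNNGTT, read by the Grainyhead-like factors of epithelia, was in no window of a member and in 4.2% of all windows, and its form AACCGGTT was in no window of a member and in 0.146% of all. These matches describe letters in the windows and were not measured as binding.

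Claudin-3, encoded by Cldn3, is a barrier-forming claudin closely related to claudin-4. Its scaled intensities were 6.35 and 9.83 on the 4T1-S arrays, against 7.47 and 10.3 on the 4T1-A arrays. The sub-lines overlapped, with 1 high and 1 low array in each. The difference was -0.15 ± 0.27 (SE, n = 2 arrays per sub-line, limma's adjusted p = 0.770), with a 95% interval from -0.79 to 0.49. That interval lies wholly above the intervals of Cldn4 and Cldn7. The sign of the Cldn3 difference turned without 4T1-A replicate 2, to 0.08, and without 4T1-S replicate 1, to 0.16.

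Claudin-12, encoded by Cldn12, is a claudin without the tail that binds zonula occludens proteins, and it is linked to calcium passage in the gut. Its scaled intensities were 2.60 and 2.99 on the 4T1-S arrays, against 1.86 and 2.06 on the 4T1-A arrays. Both 4T1-S arrays were above both 4T1-A arrays, but the difference of 0.51 ± 0.20 (SE, n = 2 arrays per sub-line) did not pass, with limma's adjusted p = 0.162. The 95% interval was 0.05 to 0.97. Scaling each array to its median in place of its 75th percentile reduced the difference of Cldn12 to 0.22.

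Claudin-1, encoded by Cldn1, is required for the water barrier of the epidermis. Neither of its 2 probes was well above background on any array. The brighter probe gave 0.0315 and 0.0153 on the 4T1-S arrays, against 0.0334 and 0.0266 on the 4T1-A arrays. The other gave 0.0135 and 0.0134 on the 4T1-S arrays, against 0.0130 and 0.0118 on the 4T1-A arrays, and on all 4 arrays these were surrogate values that the software writes in place of a low signal. Cldn1 was therefore not tested and has no fold.

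The differences of the 4 measured claudins were also set against each other, as the change in the log2 ratio of a pair of probes between the sub-lines. Cldn4 changed by -2.50 relative to Cldn3, and Cldn7 by -2.67. Relative to Cldn12 the changes were -3.16 for Cldn4 and -3.33 for Cldn7. Cldn12 changed by 0.66 relative to Cldn3, and Cldn7 by -0.16 relative to Cldn4. In each of these 6 pairs the 4T1-S arrays did not overlap the 4T1-A arrays. The 6 pairs are made of the same 4 genes, and 59% of all genes tested did not overlap singly. The share over all pairs of genes was not measured. With 2 arrays per sub-line a two-sided exact permutation test cannot go below p = 0.333, which each pair gave before and after adjustment over the 6 pairs. That test could not pass at this number of arrays whatever the values, so the changes between claudins are given as descriptions.

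**Figure D2:**
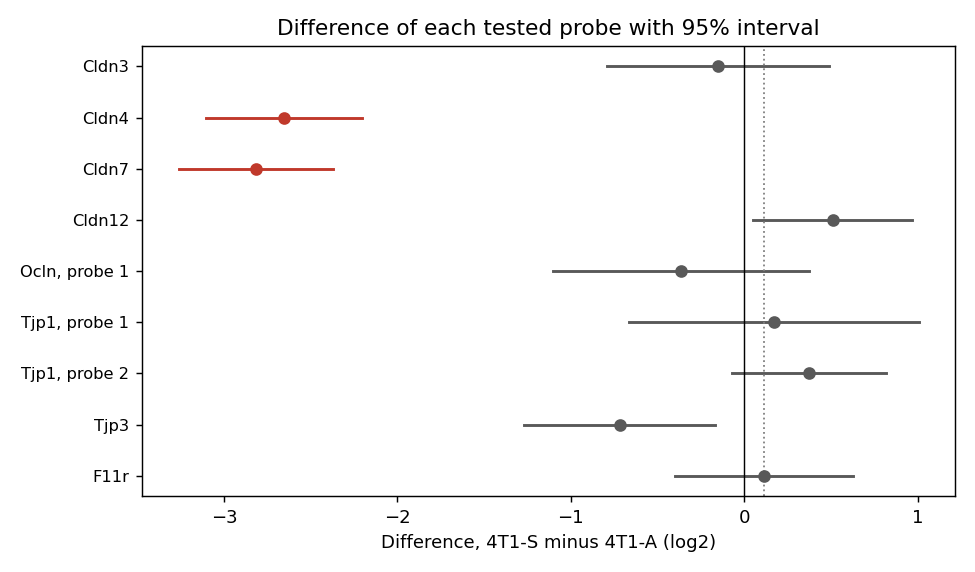
Difference of each tested member probe, 4T1-S minus 4T1-A, as a point with its 95% interval from limma (log2). Red marks the 2 genes called lower, Cldn4 at -2.65 and Cldn7 at -2.82, and the dotted line is the median of all probes tested, 0.11.

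The other membrane proteins among the members, F11r and Ocln, did not pass the test. F11r encodes junctional adhesion molecule A, an immunoglobulin-like protein that helps polarity complexes assemble at the junction. Its scaled intensities were 13.9 and 16.6 on the 4T1-S arrays, against 12.3 and 16.0 on the 4T1-A arrays. The sub-lines overlapped, and the difference of 0.12 ± 0.22 did not pass (SE, n = 2 arrays per sub-line, limma's adjusted p = 0.782, 95% interval -0.40 to 0.63). Its sign turned with scaling to the median (-0.18), without 4T1-A replicate 1 (-0.07) and without 4T1-S replicate 2 (-0.01).

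Ocln encodes occludin, a membrane protein that helps regulate the junction. The brighter of its 2 probes gave 0.261 and 0.412 on the 4T1-S arrays, against 0.327 and 0.546 on the 4T1-A arrays. The sub-lines overlapped, and the replicate arrays of each lay 0.66 apart in 4T1-S and 0.74 apart in 4T1-A on the log2 scale. The difference was -0.37 ± 0.32 (SE, n = 2 arrays per sub-line, limma's adjusted p = 0.505, 95% interval -1.10 to 0.37), and it was 0.0032 without 4T1-A replicate 2. The second Ocln probe gave 0.0696 and 0.0435 on the 4T1-S arrays, against 0.0672 and 0.0490 on the 4T1-A arrays. No array showed it well above background, and it was not tested.

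The zonula occludens scaffolds did not pass either. Tjp1 encodes ZO-1, the scaffold found at tight junctions and at early cell contacts. Its brighter probe gave 1.03 and 2.15 on the 4T1-S arrays, against 1.11 and 1.58 on the 4T1-A arrays. The 2 4T1-S arrays enclosed the 4T1-A arrays, and their gap of 1.06 on the log2 scale was the widest between replicates among the 9 tested member probes. The difference was 0.17 ± 0.36 (SE, n = 2 arrays per sub-line, limma's adjusted p = 0.802, 95% interval -0.66 to 1.01), and its sign turned with scaling to the median (-0.12), without 4T1-A replicate 1 (-0.09) and without 4T1-S replicate 2 (-0.36). The second Tjp1 probe was tighter, at 0.270 and 0.242 on the 4T1-S arrays, against 0.198 and 0.196 on the 4T1-A arrays. These did not overlap, and the difference of 0.38 ± 0.19 did not pass (SE, n = 2 arrays per sub-line, limma's adjusted p = 0.260, 95% interval -0.07 to 0.82).

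Tjp3 encodes ZO-3, a scaffold found mainly in epithelia. Its scaled intensities were 0.106 and 0.128 on the 4T1-S arrays, against 0.162 and 0.228 on the 4T1-A arrays. All 4 were well above background, and both 4T1-S arrays were below both 4T1-A arrays. The difference of -0.72 ± 0.24 did not pass (SE, n = 2 arrays per sub-line, limma's adjusted p = 0.121, 95% interval -1.27 to -0.17). It was -0.21 with normexp background correction, -0.47 without 4T1-A replicate 2 and -1.01 with scaling to the median, and did not pass in those. Over the 8 tested genes, 3 had 4T1-S arrays wholly below the 4T1-A arrays (Cldn4, Cldn7 and Tjp3) and 1 had them wholly above (Cldn12), where over all genes tested the shares were 18.5% and 40.6%, 59% together.

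**Figure D3:**
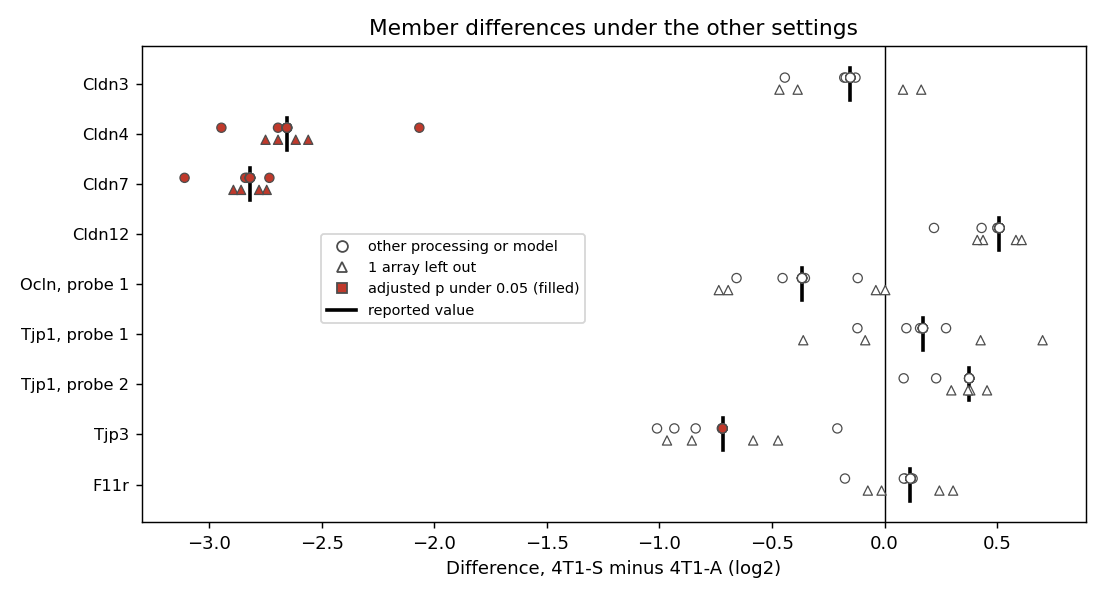
Difference of each tested member probe (log2) under the 16 other settings. Circles change the processing or the model, triangles leave out 1 array, filled symbols have an adjusted p under 0.05 and the black bar is the reported value. Cldn4 and Cldn7 keep their call in all of them, Tjp3 passes in 1, and Cldn3, Ocln, Tjp1 and F11r have settings on both sides of 0.

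The rest of the tight junction was read from lists of related genes. Of 23 other claudin genes and claudin-domain genes listed, 18 were on the array, and 6 were tested, of which limma called 0 lower and 0 higher. At an unadjusted p under 0.05, 1 was lower and 2 were higher, where the shares over all genes tested were 7.83% and 19.4%. The shares of all genes called were 2.55% lower and 2.4% higher. The 6, named here after their values were seen, were Cldn9, Cldn10, Cldn15, Cldn16, Cldn23 and Cldnd1. The brightest was Cldnd1, a claudin-domain gene, with a difference of -0.81 ± 0.23 that did not pass (SE, n = 2 arrays per sub-line, adjusted p = 0.0904). It passed with scaling to the median (0.0325) and without 4T1-A replicate 2 (0.0229). Of the 18, 11 were not well above background on any array by their brightest probe, among them Cldn2, a claudin of leaky epithelia, and Cldn5, the main claudin of endothelium. The median difference of the 6 was 0.07, against 0.13 over all genes tested.

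Of 11 other membrane proteins of the junction, 7 were tested, 1 fell, 0 rose and 6 did not pass, with a median difference of 0.16. At an unadjusted p under 0.05, 1 was lower and 0 were higher. The shares over all genes tested were 2.55% called lower and 2.4% called higher. They were 7.83% lower and 19.4% higher at the unadjusted threshold. The gene that fell was Marveld3, a relative of occludin at epithelial tight junctions. It gave 0.102 and 0.124 on the 4T1-S arrays, against 0.308 and 0.530 on the 4T1-A arrays. The groups did not overlap, and the difference was -1.85 ± 0.28 (SE, n = 2 arrays per sub-line, limma's adjusted p = 0.0132), with -1.64 at a second probe (adjusted p = 0.0152). Marveld3 no longer passed when 4T1-S replicate 1 was left out (adjusted p = 0.0704), with no filter on background (0.103) and with normexp, which gave -0.91 (0.0919). Lsr, a protein of contacts where cells meet at corners, did not pass at a difference of 0.16 ± 0.19 (adjusted p = 0.653), which was -0.13 with scaling to the median.

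Of 31 other scaffold and polarity genes, 28 were tested, 1 fell, 0 rose and 27 did not pass, with a median difference of -0.08. Over all genes tested, 2.55% were called lower and 2.4% higher. At an unadjusted p under 0.05, 5 were lower and 4 higher, 9 of 28. Over all genes tested 7.83% were lower and 19.4% higher at that threshold, 27.2% together. Pard6g, an adaptor of the polarity complex with atypical protein kinase C, was lower by at least 3.04-fold in 4T1-S, whose arrays did not show its probe well above background. It gave 0.0677 and 0.0444 on the 4T1-S arrays, against 0.194 and 0.178 on the 4T1-A arrays (limma's adjusted p = 0.00845). A bound sets the mean of the brighter sub-line against the higher of the probe's own signal and the lowest signal well above background on each array. A second Pard6g probe gave a bound of 2.95-fold. The call was lost with no filter on background (adjusted p = 0.0818) and with normexp (0.142). Pard6g was tested only because both 4T1-A arrays showed it well above background. Scrib, a scaffold of the lateral membrane, differed by 0.14 ± 0.20 (adjusted p = 0.700), and by -0.15 with scaling to the median and -0.04 with normexp.

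Among transcription factors known to act on epithelial junction genes, Ovol1, Ovol2 and Zeb1 fell. Of 16 listed, 15 were on the array, 12 were tested, 3 fell, 0 rose and 9 did not pass. With the unadjusted p under 0.05 there were 4 lower and 3 higher, 7 of 12. Over all genes tested 7.83% were lower and 19.4% higher at that threshold, 27.2% together. Of those 7 factors, Grhl2 was lower and Grhl1, Klf5 and Zeb2 were higher without passing. Zeb2 differed by 0.64 ± 0.19 (limma's adjusted p = 0.0997), and by 0.54 at a second tested probe. Grhl2 differed by -0.76 ± 0.19 (limma's adjusted p = 0.0681), and by -0.27 at a second tested probe. Snai1 differed by 0.17 ± 0.19 (limma's adjusted p = 0.604) and did not pass. Snai2 did not pass either, at -0.40 ± 0.19 (limma's adjusted p = 0.243), and neither 4T1-S array showed it well above background. The 3 of 12 called, all lower, stand beside 2.55% of all genes called lower and 4.95% called either way. Ovol1, Zeb1 and Snai2 were tested only because both 4T1-A arrays showed them well above background, which favours a lower value. The counts are therefore descriptions of the list. The median difference of the 12 was -0.35, against 0.13 over all genes tested. Ovol2, a zinc finger factor that holds cells in an epithelial state, gave 0.109 and 0.116 on the 4T1-S arrays, against 0.460 and 0.642 on the 4T1-A arrays. The sub-lines did not overlap, and the log2 difference of Ovol2 was -2.27 ± 0.22 (SE, n = 2 arrays per sub-line, limma's adjusted p = 0.00163), with -1.44 at a second probe (adjusted p = 0.00990). Its call held under all 16 alternative settings, with -1.18 under normexp.

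Ovol1, the close relative of Ovol2, was lower by at least 1.58-fold in 4T1-S, in which neither array had it well above background (limma's adjusted p = 0.00269), and a second probe gave at least 1.47-fold. Ovol1 gave 0.0263 and 0.0256 on the 4T1-S arrays, against 0.0995 and 0.0826 on the 4T1-A arrays, and its call was lost with normexp (adjusted p = 0.385). Zeb1, a repressor of claudin and E-cadherin genes that Ovol factors are known to repress, was lower by at least 1.78-fold in 4T1-S, again with neither array well above background (adjusted p = 0.0397). It gave 0.0373 and 0.0119 on the 4T1-S arrays, against 0.105 and 0.0991 on the 4T1-A arrays, and its call was lost without the filter on background (0.152) and under normexp (0.189). Klf5, a factor of proliferating epithelium, had a difference of 0.76 ± 0.19 that did not pass (adjusted p = 0.0671). It gave 10.9 and 10.8 on the 4T1-S arrays, against 6.44 and 6.41 on the 4T1-A arrays. Klf5 passed when 1 probe per gene was tested (0.0487), with the mean of a gene's probes (0.0393) and with an intensity trend and robust fitting (0.0451).

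**Figure D4:**
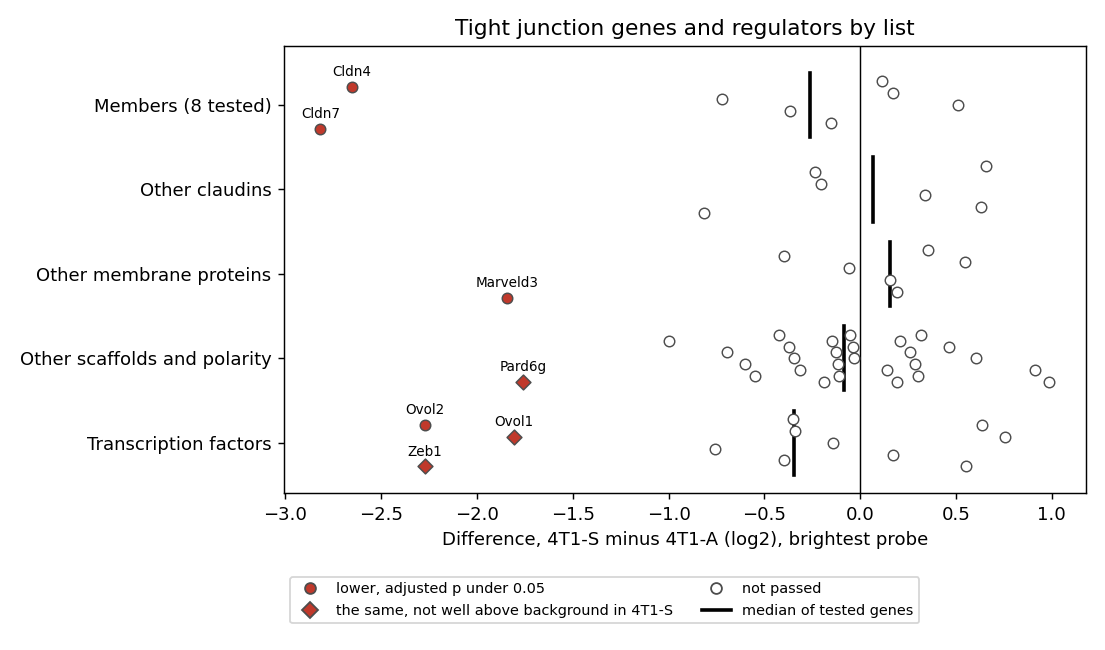
Difference of the brightest tested probe of each gene (log2, 4T1-S minus 4T1-A) for the 8 tested members and the 4 lists of related genes, with a bar at the median of each. Red symbols are genes called lower, and red diamonds were not well above background in 4T1-S, so that their measured differences are not bounds. Of the genes drawn, 7 are called lower and 0 higher, where over all genes tested 2.55% were called lower and 2.4% higher. The red diamonds, Pard6g, Ovol1 and Zeb1, were tested only because both 4T1-A arrays showed them well above background. The lists were chosen with earlier results of these data known.

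Markers of other cell types were read beside these results. Of 6 markers of carcinoma epithelium, 6 were well above background on both arrays of both sub-lines, with summed scaled intensities of 306 and 251 in 4T1-S and 314 and 330 in 4T1-A. These sums are mostly the signal of Krt7, Krt8 and Krt18, which did not pass. The other 3 of the 6 were called lower, at differences of -3.78 for Epcam, -2.61 for Krt19 and -1.11 for Cdh1. Over all genes tested, 2.55% were called lower and 2.4% higher. Of 7 fibroblast markers, 4 were well above background on both 4T1-S arrays and 2 on both 4T1-A arrays, with sums of 1.43 and 1.41 in 4T1-S and 0.726 and 0.957 in 4T1-A. The brightest probe of 4 of the 7 was tested, and all 4 were higher at an unadjusted p under 0.05 with arrays that did not overlap. Over all genes tested, 19.4% were higher at that threshold and 40.6% did not overlap in that direction. Col1a1 and Col3a1 entered the test only through 4T1-S. Col1a1 was called higher, by at least 2.59-fold (adjusted p = 0.00794), while its 2 other probes were not well above background on either sub-line, and no array showed Lum well above background. Of 6 leukocyte markers, 4 were well above background on both arrays of each sub-line, with sums of 0.774 and 0.794 in 4T1-S and 0.850 and 0.954 in 4T1-A, and Ptprc was above on 1 4T1-S array only. Of 5 endothelial markers, none was above background on both arrays of a sub-line, and 4 were not well above it on any array. Their sums, 0.223 and 0.171 in 4T1-S and 0.112 and 0.113 in 4T1-A, are therefore signal near background and not a level. The part of these markers in the claudin differences was not tested.

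Across all probes, limma called 557 lower and 513 higher, 4.52% in all, and the median difference was 0.11. With scaling to the median these were 1162 and 225 with a median of -0.18, after cyclic loess 696 and 272, and after quantile normalization 586 and 309. Differences of the members that are near 0 are therefore relative to a shift of that size.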

How the data were processed

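Total RNA of 2 arrays per sub-line was measured on one-colour Agilent arrays. Intensity values were extracted by the authors with Agilent Feature Extraction 9.1, per the submitters' processing notes, and per the file headers that intensity has had background and spatial trend removed and holds a surrogate where the signal was low. The deposited series table holds a ratio, found from its values to be the processed intensity over the 75th percentile of the array. It was used as an alternative.

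Here each processed intensity was divided by the 75th percentile of its array, over 43379 spots other than controls, and log2 was taken. Spots with an outlier flag (5 to 9 per array, 0 of them a member) were left out, and spots of a probe were averaged. Sub-lines were compared with limma 3.58.1 in R 4.3.3 (lmFit and eBayes, 2-sided, 2 residual and 5.46 prior degrees of freedom). No member probe was saturated. Names of other genes came from a RefSeq table of GRCm38.p6, by accession for 22951 probes and by symbol for 9768, while 8455 kept the file's name. The array files name no build. Gene names were read from 1 array file, since 47 names differ in that of 4T1-A replicate 1. The 16 alternatives changed the scaling, background correction, filter, probe summary, model or value table, or left out 1 array. The procedure was tested on simulated data. The number of arrays limits the precision. The members and lists were chosen with earlier results of these data known. All members were named, and of each other list up to 4 rises, up to 4 falls and the brightest gene that did not pass. Of the transcription factors and other claudins, further genes were named after their values were seen.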

Additional observations from a re-analysis of the deposited data

How the results depend on the processing

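Of the 9 tested member probes, Cldn4 and Cldn7 kept their direction and call under all 16 alternatives. The calls of member genes stayed at 2 lower and 0 higher in 15 of them. The other was the replicate block, which takes the labels' number 1 or 2 as a block. With it Tjp3 passed at the same difference of -0.72 (adjusted p = 0.0245), which made 3 member genes lower. Cldnd1 (adjusted p = 0.0171) and Klf5 (0.0193) also passed with it, and 1664 probes were lower and 3008 higher. Deviations of same-numbered arrays from their sub-line mean correlated at 0.44 across 23669 probes, but with 2 pairs the number alone does not show that the arrays are paired. The differences that turned sign had not passed. Scaling to the median gave -0.12 for the brighter Tjp1 probe and -0.18 for F11r, and it turned Lsr (-0.13) and Scrib (-0.15). Normexp turned Scrib (-0.041).

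With 1 array left out, the lone array is assumed to vary like the others. The ranges were -0.47 to 0.16 for Cldn3, -0.74 to 0.0032 for Ocln, -0.36 to 0.70 for the brighter Tjp1 probe and -0.074 to 0.30 for F11r, so each had both signs.

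The counts over all probes moved more. Scaling to the median gave 1162 lower and 225 higher, normexp 292 and 243, no filter on background 206 and 96, and the filter on all 4 arrays 309 and 270. The count of higher probes was 309 with quantile normalization and 272 with cyclic loess, and 800 genes were higher with the mean of a gene's probes. With 1 array left out, lower probes numbered 306 to 1073 and higher probes 140 to 1215, with 306 and 140 without 4T1-S replicate 2, and 1073 and 1215 without 4T1-A replicate 2. Leaving out 4T1-S replicate 1 gave 343 and 199. The cause of these changes was not tested. Signal over background limits Cldn1 and the second Ocln probe, which have no fold, and the dim probes of Tjp3, Ovol1, Zeb1 and Pard6g, whose differences shrank under normexp.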

Other observations

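The genes next to Cldn4 and Cldn7 in the genome did not pass the test. Cldn4 and Cldn3 lie next to each other on chromosome 5 of assembly GRCm38.p6, with 0 protein-coding genes between them. Of the 10 protein-coding genes nearest to Cldn4, 5 on either side, 7 were tested, Cldn3 among them, and limma called 0 lower and 0 higher (0 at an unadjusted p under 0.05). Their differences ran from -0.26 for Stx1a, a syntaxin of vesicle fusion, to 0.29 for Limk1, a kinase that acts on cofilin. Cldn7 lies on chromosome 11, and all 10 of its nearest protein-coding genes were tested, with 0 called lower and 0 higher and 2 at an unadjusted p under 0.05, beside 27.2% of all genes tested. Their differences ran from -0.18 for Slc2a4, which encodes the glucose transporter GLUT4, to 0.48 for Elp5, a subunit of the elongator complex. The neighbours were chosen by position after the values of the claudins were known.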
